A study of Homo sapiens with 28 samples.

Results

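Ribosome biogenesis genes encode the proteins that transcribe, modify, cut and fold ribosomal RNA and assemble it with ribosomal proteins. The set described here held 47 genes, chosen by name from the assembly pathway with earlier results of these data known. A gene was measured through the probe sets annotated with its symbol alone. Of the 47 genes, 37 had such a probe set; all of these passed the filter on low signal and were tested, within 8024 genes tested and 11963 genes named on the array. NOP56, DKC1, DDX47 and BOP1 had only probe sets that also match another gene, and NOB1, DDX18, GNL3, EBNA1BP2, SURF6 and LYAR were not analysed here. The 37 genes were read in A549 and H1299, established human non-small cell lung cancer lines, on 28 one-colour HG-U133 A 2.0 arrays. Each line was given azacitidine (AZA) at 0.3, 1 or 3 µM for 48 h, decitabine (DAC) at 0.3, 1 or 3 µM for 48 h, or the vehicle dimethyl sulfoxide (DMSO), with drug renewed every 24 h. Each of the 14 groups held 2 arrays. A549 3 µM decitabine replicate 1 is the only array labelled REPEAT, and what was repeated is not said. No label says that the 2 arrays of a group came from separate cultures, so every p-value measures the spread between these samples, which may be technical.

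Ribosomes are built mainly in the nucleolus. RNA polymerase I makes 1 long precursor RNA, small nucleolar ribonucleoproteins (snoRNPs) guide the modification of its bases and sugars, and the small subunit processome, a large early particle, folds and cuts the part that becomes the small (40S) subunit, while other factors mature the large (60S) subunit and carry both to the cytoplasm. Many genes of the pathway are known targets of the transcription factor MYC, which binds the E-box sequence CACGTG, and tumour cells are known for high output of the pathway. Azacitidine and decitabine resemble cytidine and, when copied into DNA, bind DNA methyltransferases covalently. Azacitidine carries a ribose and enters mostly RNA, whereas decitabine is its deoxyribose form and enters DNA.

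The stretches of promoter below are shown because the E-box was frequent in the set and these genes let its place be compared; all of them but UTP20 rose with 3 µM azacitidine in A549. They are 120 bases each on the + strand of GRCh38.p14, from RefSeq, 5′ to 3′, upstream of an annotated start, with E-boxes in capitals. The first base of the E-box marked lay 241 bases upstream of the start in UTP14A, 157 in AATF, 89 in UTP18, 31 in DDX21 and 10 in UTP20. DDX21 has another annotated start, farther upstream, whose promoter window held no E-box, and the stretch shown was chosen because it holds an E-box. UTP18 had another E-box outside the stretch shown, and DDX10, the gene with the largest rise in A549, had none in its promoter window. The positions are chr11:108664949-108665068 for DDX10, chrX:129905914-129906033 for UTP14A, chr17:36948740-36948859 for AATF, chr17:51260400-51260519 for UTP18, chr10:68956527-68956646 for DDX21 and chr12:101279985-101280104 for UTP20.
DDX10: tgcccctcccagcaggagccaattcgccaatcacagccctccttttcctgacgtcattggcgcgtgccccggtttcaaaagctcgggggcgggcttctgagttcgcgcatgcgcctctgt
UTP14A: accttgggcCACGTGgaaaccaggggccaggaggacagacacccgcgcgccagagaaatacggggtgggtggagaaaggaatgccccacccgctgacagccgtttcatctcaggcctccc
AATF: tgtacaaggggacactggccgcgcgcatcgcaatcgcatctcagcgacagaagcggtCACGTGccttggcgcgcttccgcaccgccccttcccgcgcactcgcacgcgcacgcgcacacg
UTP18: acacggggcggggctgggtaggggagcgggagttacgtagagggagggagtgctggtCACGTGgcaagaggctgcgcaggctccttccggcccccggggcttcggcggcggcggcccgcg
DDX21: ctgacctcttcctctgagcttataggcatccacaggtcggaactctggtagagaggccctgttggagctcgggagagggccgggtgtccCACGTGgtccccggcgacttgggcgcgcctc
UTP20: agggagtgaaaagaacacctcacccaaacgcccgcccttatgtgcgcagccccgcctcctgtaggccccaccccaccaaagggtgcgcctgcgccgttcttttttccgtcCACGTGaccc

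Promoters of 250 bases before to 50 bases after the start were at hand for 33 of the 37 tested genes, some with more than 1 start, which gave 35 promoters. The E-box CACGTG, which reads the same on both strands, stood in 17 of these 35 promoters (48.6%), against 9.71% of the 10022 promoters of all tested genes at hand and 7.26% of the 35116 promoters of the whole table. In 6 of the genes the first E-box lay wholly upstream of the start, and in the others it touched or followed it. The ETS-type motif CCGGAAG, searched on both strands, was in 42.9% of the set's promoters, against 16.3% of the promoters of tested genes and 10.3% of the whole table. The GC box GGGCGG on either strand was in 68.6%, against 65.8% of promoters of tested genes and 45.0% of the table, and the ATF4-type motif TGATGNAA was in 0 of 35, against 2.03% and 3.62%. Each motif was counted on its own, also where matches of different motifs overlap, and a match describes letters, not a bound site. The median count of CpG dinucleotides in a promoter was 25 in the set, 25 among tested genes and 14 over the whole table. Among promoters of genes that rose with 3 µM azacitidine in A549, 12 of 22 (54.5%) held an E-box, against 5 of 13 (38.5%) among the tested genes that were not called.

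The values are MAS5 signals, a brightness per probe set on a linear scale, and every array had a trimmed mean close to 500.1. The 25th percentile of signal ran from 18.0 to 28.3 over the arrays and stood highest on A549 vehicle replicate 1 (28.3), A549 3 µM azacitidine replicate 1 (25.7) and A549 3 µM decitabine replicate 2 (24.3). Where these 3 arrays are left out below, A549 vehicle, 3 µM azacitidine and 3 µM decitabine each keep 1 array, for decitabine the one labelled REPEAT. Replicate arrays correlated at 0.989 to 0.994. Of 8 epithelial markers, 7 were above the array's median signal in both A549 vehicle arrays (KRT7, KRT8, KRT18, KRT19, EPCAM, CDH1 and ELF3), but in H1299 only KRT8 and KRT18 were. Of the other cell types' markers, 0 of 8 leukocyte, 1 of 7 fibroblast and 0 of 5 endothelial genes passed that mark in A549, and 1 of 8, 1 of 7 and 0 of 5 in H1299.

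Differences below are on the log2(signal + 32) scale, where 1 is a factor of 2, and come from 1 limma model of all 28 arrays with its standard error (SE) shared over groups. A gene was called where the Benjamini-Hochberg adjusted p over the 8024 genes was below 0.05, two-sided. The arrays read RNA of whole cultures scaled to a common mean, so fewer cells in a given state and less RNA per cell cannot be told apart.

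Before any drug, the genes of the set called between the lines were mostly lower in A549, while all genes were called about evenly each way. The set was not called more often than all genes. In A549 vehicle arrays 5 of the 37 genes were higher and 17 were lower than in H1299 vehicle arrays, where 32.4% and 32.9% of all genes were called in those directions. The median difference over the set was -0.24, against -0.00 over all genes tested. DDX10, a DEAD-box helicase of the small subunit processome, read 1678 and 1613 in A549 and 821 and 1047 in H1299, a difference of 0.81 (SE 0.10, adjusted p = 1.95e-07). AATF, a nucleolar processome factor, read 1207 and 1342 in A549, against 731 and 823 in H1299 (0.69, adjusted p = 3.06e-06). PNO1, which helps form the end of small-subunit RNA, read 2632 and 2719 in A549 and 1885 and 1700 in H1299 (0.57, adjusted p = 1.38e-05). All 3 were higher in both A549 arrays than in either H1299 array.

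The processome proteins NOP14 and PWP2 and the 60S GTPase GNL2 were the genes furthest the other way. NOP14 read 341 and 409 in A549, against 1001 and 913 in H1299 (-1.28, SE 0.11, adjusted p = 1.53e-09). GNL2 read 602 and 553 in A549 and 1252 and 1342 in H1299 (-1.13, adjusted p = 2.44e-07), and PWP2 read 339 and 334 against 731 and 791 (-1.11, adjusted p = 1.37e-09). By role, 0 of the 5 snoRNP genes were higher in A549 and 4 were lower, with EMG1, an rRNA methyltransferase, at -1.04 and the methyltransferase fibrillarin (FBL) at -0.60. The processome was mixed, with 4 higher and 5 lower of 15, and 60S factors had 0 higher and 5 lower of 9. MYC itself read 1995 and 2348 in A549, against 3262 and 3326 in H1299.

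With 3 µM azacitidine, A549 cells raised the pathway broadly. Of 37 genes, 23 rose and 0 fell, against 22.1% of all genes called higher and 16.2% called lower. The set's median difference was 0.40, against 0.06 over all genes tested. In every one of the 23 genes the 2 azacitidine arrays stood above both vehicle arrays, which was not counted over all genes called. The plot of all genes at 3 µM shows the rise reaching each of the 5 roles. Of the 8 epithelial markers, 0 rose and 5 fell in these cells, and with 3 µM decitabine 4 rose and 0 fell in A549. In H1299, 0 rose and 1 fell with azacitidine, and 6 rose and 0 fell with decitabine. Of all genes, 15% rose and 10.8% fell with decitabine in A549. In H1299 32.3% rose and 21.6% fell with azacitidine, and 16.3% and 14.6% with decitabine. Only KRT8 and KRT18 of the markers were above the array's median signal in both H1299 vehicle arrays. The part of such a change of the markers in the results was not tested.

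**Figure D1:**
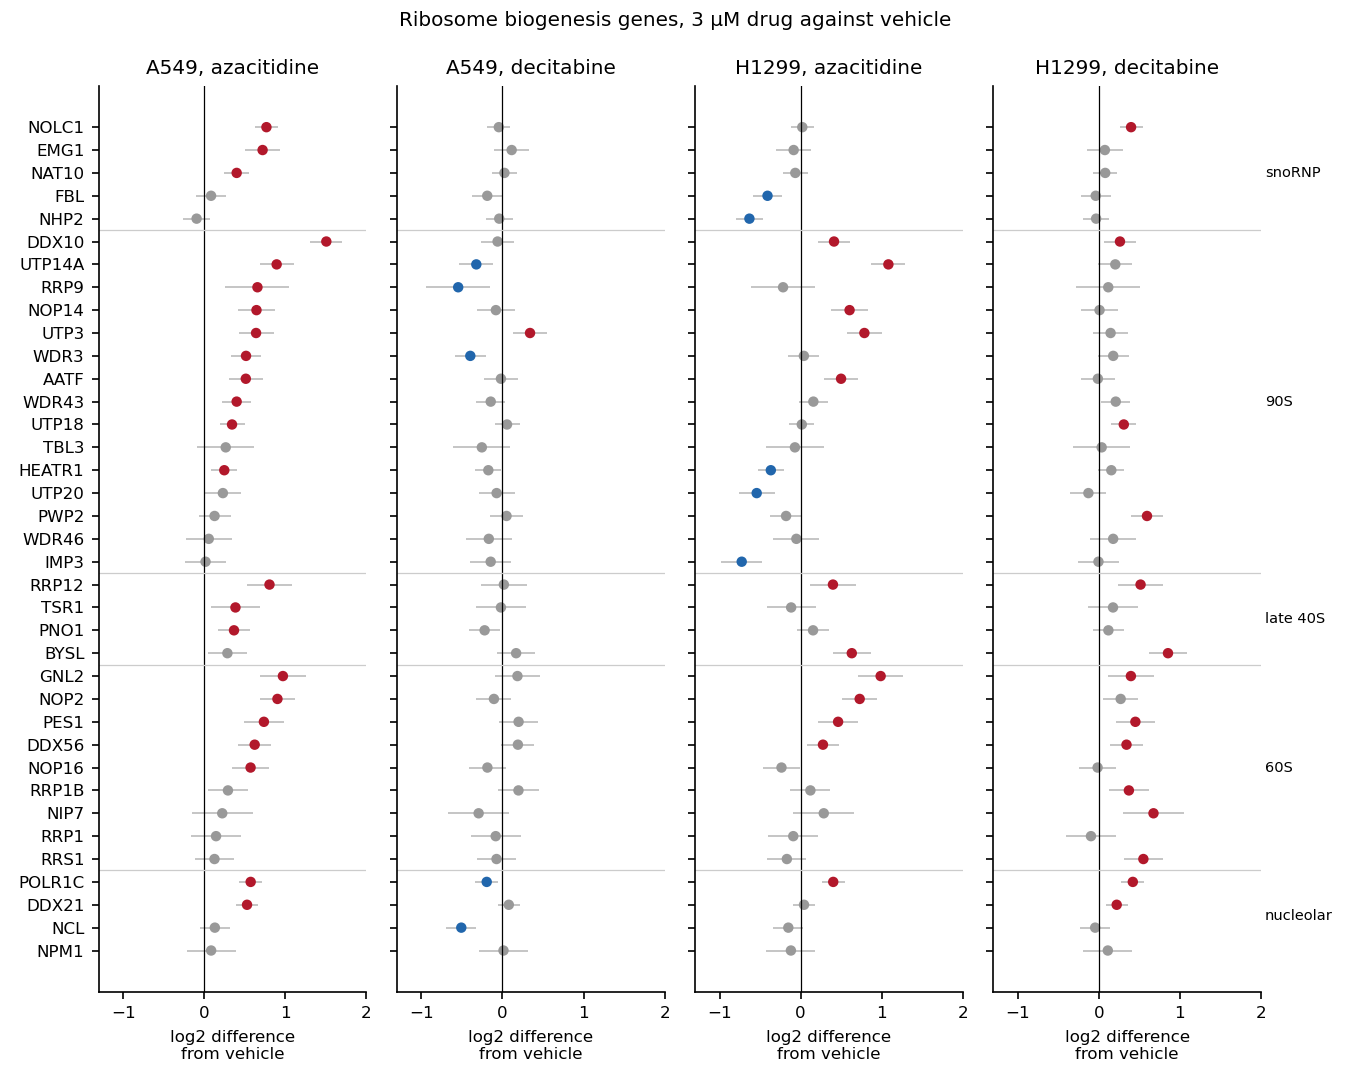
Log2 difference from vehicle at 3 µM (x axis) for the 37 genes (rows, grouped by role: snoRNP, small subunit processome labelled 90S, late 40S, 60S and nucleolar), in 4 panels for A549 and H1299 with azacitidine and decitabine. Points are limma estimates and bars 95% intervals, red called higher, blue called lower and grey not called; the red points number 23, 1, 12 and 14 from left to right and the blue points 0, 5, 5 and 0.

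Among the snoRNP and RNA modification genes, 3 of 5 rose in A549 with 3 µM azacitidine. NOLC1, a chaperone that shuttles snoRNPs, read 5003 and 5162 with azacitidine and 2833 and 3125 with vehicle (0.77, adjusted p = 2.48e-08). EMG1 read 3087 and 3241, against 1643 and 2218 with vehicle (0.72), and the RNA acetyltransferase NAT10 rose by 0.40. Not called were FBL, at 6001 and 6394 with azacitidine and 5399 and 6331 with vehicle (0.08, adjusted p = 0.496), and the pseudouridylation cofactor NHP2 (-0.10). These 2 genes code for core proteins of the 2 snoRNP classes, and their azacitidine and vehicle arrays overlapped.

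Of the small subunit processome, 10 of 15 genes rose. DDX10 reached 4493 and 4974 with 3 µM azacitidine, against 1678 and 1613 with vehicle, a difference of 1.50 (SE 0.10, adjusted p = 2.08e-10). UTP14A, which recruits a helicase to the particle, reached 1962 and 1971, against 1177 and 926 (0.89, SE 0.10, adjusted p = 6.32e-07). Both azacitidine arrays of each gene were far above both vehicle arrays. RRP9, the U3 snoRNA binding protein, rose to 243 and 211, against 127 and 137 (0.66), and NOP14 (0.64), UTP3 (0.64), WDR3 (0.51), AATF (0.51), WDR43 (0.40), UTP18 (0.34) and HEATR1 (0.25) also rose. TBL3, UTP20, PWP2, WDR46 and IMP3 lay between 0.01 and 0.26 and were not called.

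Late 40S factors rose in 3 of 4 genes: RRP12, an export and maturation factor (0.80), the GTPase-like TSR1 (0.38) and PNO1 (0.37), with BYSL at 0.28 (adjusted p = 0.0528). Without the 3 arrays of highest 25th percentile TSR1 (0.32), PNO1 (0.34) and, of the processome, RRP9 (0.52) were not called, and BYSL read 0.52. That fit set 1 azacitidine array against 1 vehicle array. Of the 60S factors, 5 of 9 rose. GNL2 read 1100 and 1223 with azacitidine, against 602 and 553 (0.97, SE 0.14, adjusted p = 8.7e-06), and NOP2, a methyltransferase of 28S-type RNA, read 1989 and 1886, against 1032 and 1012 (0.90, SE 0.10, adjusted p = 8.18e-07). The PeBoW complex protein PES1 (0.73), the helicase DDX56 (0.62) and NOP16 (0.57) rose too, but RRP1B, NIP7, RRP1 and RRS1 were not called (0.13 to 0.29).

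Of the nucleolar genes, 2 of 4 rose. Nucleolin (NCL), a histone and RNA chaperone of the nucleolus, read 8602 and 9978 with azacitidine and 8446 and 8486 with vehicle (0.13, adjusted p = 0.267). Nucleophosmin (NPM1), another such chaperone, read 11291 and 16106, against 11500 and 14075 (0.08, adjusted p = 0.696). The vehicle values of NPM1 lay inside the range of its azacitidine arrays. POLR1C, a subunit shared by RNA polymerases I and III, rose to 1008 and 1068, against 691 and 685 (0.57, SE 0.07, adjusted p = 1.44e-06), and the helicase DDX21, which links polymerase I transcription and rRNA processing, rose by 0.53.

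With 3 µM decitabine, few of these genes were called in A549. Of 37 genes, 1 rose and 5 fell, against 15% and 10.8% of all genes, with a median of -0.07 over the set and 0.01 over all genes. The gene that rose was UTP3, at 872 and 825 with decitabine and 576 and 762 with vehicle (0.34, SE 0.10, adjusted p = 0.0191). Without A549 vehicle replicate 1 its difference was 0.15 and the call was lost.

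By the probe set used for each gene, the 5 genes that fell belonged to the processome and to the nucleolar group. Other probe sets of NOP16, PNO1 and NOLC1, genes of other roles, also read lower than vehicle, while that of POLR1C did not, as given below. The calls therefore do not limit the fall to these roles. NCL fell to 5405 and 6535 with decitabine, against 8446 and 8486 with vehicle (-0.51, SE 0.09, adjusted p = 0.00023). WDR3, a WD-repeat protein of the processome, fell to 840 and 897, against 1105 and 1203 (-0.40, SE 0.09, adjusted p = 0.00282). In both genes each decitabine array lay under both vehicle arrays, and the 2 calls were kept whichever array was left out. RRP9 read 70.8 and 90.9 with decitabine, against 127 and 137 with vehicle (-0.55, SE 0.19, adjusted p = 0.0384). UTP14A read 845 and 812, against 1177 and 926 (-0.32, adjusted p = 0.0222), and POLR1C 590 and 604, against 691 and 685 (-0.19, adjusted p = 0.0419). Leaving out the 3 arrays with the highest 25th percentile was a check added after seeing the data. It set 1 decitabine array, the one labelled REPEAT, against 1 vehicle array. NCL (-0.65) and WDR3 (-0.50) were still lower and BYSL read 0.43, while UTP3, RRP9, UTP14A and POLR1C were no longer called. FBL (5563 and 4728 with decitabine, against 5399 and 6331; -0.19, adjusted p = 0.125) and NPM1 (14176 and 11621, against 11500 and 14075; 0.01, adjusted p = 0.96) were not called. FBL was called lower on quantile-normalized values (-0.23), with the 25th percentile as a covariate (-0.21), and without vehicle replicate 1 or decitabine replicate 1 (-0.30 each).

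In H1299, 3 µM azacitidine split the set. Of 37 genes, 12 rose and 5 fell, against 32.3% and 21.6% of all genes, so the share called in either direction was close to that of all genes or below it. The median was 0.02 over the set and 0.08 over all genes tested. Centring each array on its median moved the median of all genes by -0.125, and the set then divided into 10 higher and 9 lower, with a median of -0.10.

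The genes that rose were led by UTP14A, which read 1874 and 1738 with azacitidine, against 848 and 823 with vehicle (1.08, SE 0.10, adjusted p = 1.21e-08). GNL2 read 2660 and 2545, against 1252 and 1342 (0.99, SE 0.14, adjusted p = 2.71e-06), and UTP3 read 1782 and 1993, against 1029 and 1131 (0.79, SE 0.10, adjusted p = 1.59e-06). NOP2 read 1650 and 1545, against 896 and 1009 (0.73, SE 0.10, adjusted p = 4.56e-06). In all 4 genes the azacitidine arrays stood clear of the vehicle arrays. BYSL (0.63), NOP14 (0.60), AATF (0.50), PES1 (0.46), DDX10 (0.41), POLR1C (0.40, at 1638 and 1790 against 1316 and 1260, adjusted p = 4.22e-05), RRP12 (0.40) and DDX56 (0.28) made up the rest. By role these were 5 of 15 processome genes, 2 of 4 late 40S, 4 of 9 60S and 1 of 4 nucleolar genes.

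The genes that fell were 2 of the 5 snoRNP genes and 3 of the 15 processome genes. IMP3, part of a U3 snoRNP complex, read 610 and 580 with azacitidine and 1020 and 990 with vehicle (-0.73, SE 0.12, adjusted p = 3.04e-05). NHP2 read 4519 and 4783, against 6877 and 7580 (-0.63, SE 0.08, adjusted p = 7.51e-07). UTP20, a long scaffold protein of the particle, read 788 and 840, against 1138 and 1264 (-0.54, SE 0.11, adjusted p = 0.000193). FBL read 6615 and 6777, against 8581 and 9224 (-0.41, SE 0.09, adjusted p = 0.000498), and HEATR1, a large processome and polymerase I cofactor, read 1165 and 1183, against 1472 and 1577 (-0.37, SE 0.08, adjusted p = 0.000417). None of these 5 genes had an azacitidine array above either vehicle array. NCL (7356 and 7715, against 8431 and 8313; -0.15, adjusted p = 0.158) and NPM1 (10944 and 11986, against 12482 and 12412; -0.12, adjusted p = 0.516) were not called, and the other 2 NPM1 probe sets fell (-0.44 and -0.51). On median-centred values NCL was called lower (-0.28), as NPM1 was by the mean of its probe sets (-0.36).

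Decitabine at 3 µM raised part of the set in H1299. Of 37 genes, 14 rose and 0 fell, against 16.3% and 14.6% of all genes, with a median of 0.18 over the set and -0.01 over all genes tested. BYSL, which joins the pre-40S particle early, read 1362 and 1480 with decitabine, against 722 and 823 with vehicle (0.85, SE 0.11, adjusted p = 6.39e-06). NIP7, a 60S assembly factor, read 3349 and 3858, against 2339 and 2143 (0.68, SE 0.18, adjusted p = 0.00721), and RRS1, which brings the small 5S ribosomal RNA into the large subunit in yeast, read 2939 and 2996, against 1940 and 2095 (0.55, SE 0.12, adjusted p = 0.00108). PWP2 read 1142 and 1189, against 731 and 791 (0.60, SE 0.10, adjusted p = 6.45e-05). Decitabine and vehicle arrays did not overlap in these genes.

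By role the genes that rose in H1299 with decitabine were 1 of 5 snoRNP, 3 of 15 processome, 2 of 4 late 40S, 6 of 9 60S and 2 of 4 nucleolar genes. RRP12 (0.52), PES1 (0.45), NOLC1 (0.40), GNL2 (0.40), RRP1B (0.37), DDX56 (0.34), UTP18 (0.31), DDX10 (0.26) and DDX21 (0.22) rose, and POLR1C read 1724 and 1744, against 1316 and 1260 (0.42, adjusted p = 8.37e-05). FBL (8479 and 8862, against 8581 and 9224; -0.04, adjusted p = 0.789), NCL (8316 and 7925, against 8431 and 8313; -0.04, adjusted p = 0.749) and NPM1 (12786 and 14154, against 12482 and 12412; 0.11, adjusted p = 0.6) were not called. The count of 14 dropped to 9 when either H1299 vehicle replicate 1 or H1299 3 µM decitabine replicate 2 was left out.

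The dose courses had different shapes. In A549 the set's median difference from vehicle was 0.14 at 0.3 µM azacitidine, 0.33 at 1 µM and 0.40 at 3 µM, and the genes called higher numbered 1, 23 and 23, against 1.17%, 13.1% and 22.1% of all genes; 0 were called lower, against 1.27%, 12.1% and 16.2%. NOLC1 was the gene called at 0.3 µM (0.36, adjusted p = 0.00615). Set directly against 0.3 µM, 3 µM azacitidine gave 23 genes higher and 1 lower, against 21% and 13.4% of all genes. With decitabine A549 had medians of 0.05, -0.04 and -0.07 at the 3 doses, and 0 genes higher and 2 lower at 0.3 µM (4.31% and 3.38% of all genes) and again at 1 µM (9.78% and 6.79%). TBL3 and DDX10 were lower at 0.3 µM (-0.63 and -0.40), and RRP1 and UTP14A at 1 µM (-0.63 and -0.34). From 0.3 to 3 µM decitabine 1 gene rose and 4 fell (5.67% and 3.2% of all genes), or 0 and 4 on median-centred values.

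**Figure D2:**
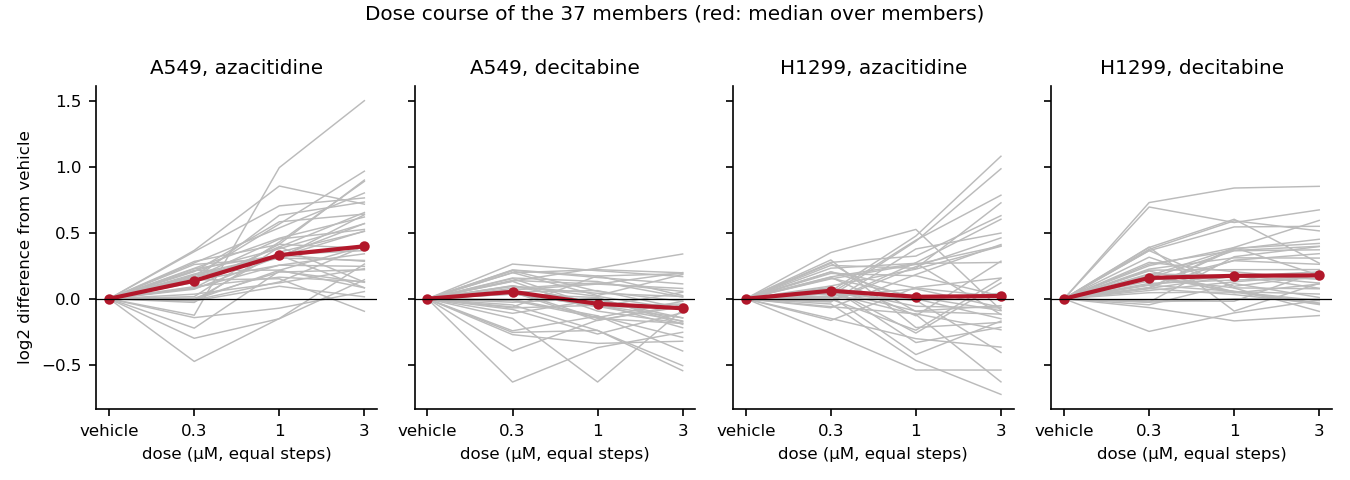
Log2 difference from vehicle (y axis) at 0.3, 1 and 3 µM (x axis, equal steps) for each of the 37 genes in grey and their median in red, in 4 panels by line and drug. The median climbs to 0.40 in A549 with azacitidine, stays between -0.07 and 0.05 in A549 with decitabine, stays near 0 while single genes spread apart in H1299 with azacitidine, and reaches 0.16 already at 0.3 µM in H1299 with decitabine.

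In H1299 the response to decitabine was present at the lowest dose and changed little above it. Azacitidine spread the genes apart as the dose grew, while the shares of all genes called grew as well. Decitabine gave 7 genes higher at 0.3 µM, 15 at 1 µM and 14 at 3 µM, and 0 lower at each, against 8.9%, 11.8% and 16.3% of all genes called higher and 8.9%, 11.6% and 14.6% called lower, with medians of 0.16, 0.17 and 0.18. Between 3 and 0.3 µM decitabine 3 genes were higher and 0 lower (5.67% and 4.26% of all genes): PWP2 (0.51), PES1 (0.37) and POLR1C (0.25). On median-centred values the counts were 1 higher and 1 lower. With azacitidine 0 genes were called at 0.3 µM, where 2.46% of all genes were higher and 3.22% lower. There 9 of the 37 genes had an unadjusted p below 0.05 in limma, as had 1622 of all 8024 genes tested. At 1 µM 8 genes rose and 5 fell, shares close to those of all genes (19.9% and 15.4%). At 3 µM, relative to 0.3 µM, 11 rose and 12 fell (33.7% and 21.8% of all genes), which became 8 and 18 on median-centred values. UTP14A illustrates the first group, at 788 and 961, then 1194 and 1156, then 1874 and 1738 with 0.3, 1 and 3 µM azacitidine, and HEATR1 the second, at 1380 and 1362, 1237 and 1221, and 1165 and 1183.

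**Figure D3:**
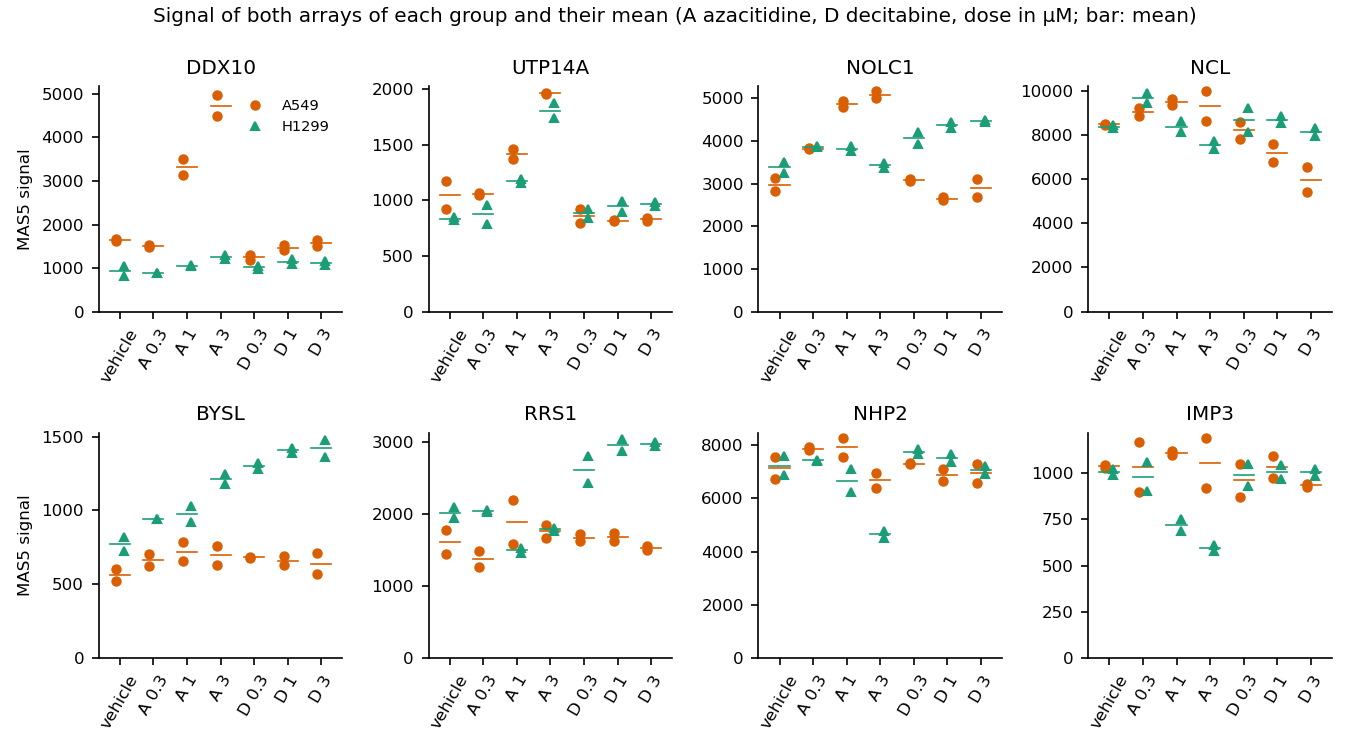
MAS5 signal (y axis, from 0) of both arrays of each group and their mean (bar) for DDX10, UTP14A, NOLC1, NCL, BYSL, RRS1, NHP2 and IMP3, with vehicle, azacitidine (A) and decitabine (D) doses in µM on the x axis, A549 as orange circles and H1299 as green triangles. DDX10 departs in A549 with 1 and 3 µM azacitidine, UTP14A in both lines with azacitidine, BYSL and RRS1 in H1299 with decitabine, and NHP2 and IMP3 drop in H1299 with 3 µM azacitidine.

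Azacitidine and decitabine differ in the sugar of the nucleoside, ribose in azacitidine and deoxyribose in decitabine, and were compared at each matched dose within each line and over the mean of the 3 doses. In A549 azacitidine stood above decitabine in 27 of 37 genes over the doses and below it in 0, against 27.9% and 26.5% of all genes, with a median of 0.28 over the set and 0.02 over all genes. By dose 1, 23 and 28 genes were higher with azacitidine at 0.3, 1 and 3 µM (2.07%, 16.4% and 26.6% of all genes) and 0 lower (3.63%, 17.9% and 23.8%). At 0.3 µM the gene called was NOLC1 (0.31, adjusted p = 0.0096).

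DDX10 had the widest gap between the compounds in A549. It read 1523 and 1488 at 0.3 µM, 3140 and 3498 at 1 µM and 4493 and 4974 at 3 µM azacitidine, and 1176 and 1311, 1413 and 1523, and 1643 and 1512 at the same doses of decitabine (1.00, SE 0.06, adjusted p = 4.25e-12). UTP14A read 1063 and 1051, 1465 and 1376, and 1962 and 1971 with azacitidine, against 925 and 798, 826 and 812, and 845 and 812 with decitabine (0.76, SE 0.06, adjusted p = 7.7e-10). For UTP14A every azacitidine array exceeded every decitabine array of the line, whereas for DDX10 the 0.3 µM azacitidine arrays lay within the range of the decitabine arrays. NOLC1 read 3831 and 3812, 4947 and 4796, and 5003 and 5162 with azacitidine, against 3115 and 3053, 2617 and 2683, and 3104 and 2677 with decitabine (0.66, SE 0.04, adjusted p = 1.44e-11). WDR3 read 1286 and 1333, 1499 and 1394, and 1533 and 1798, against 1080 and 1220, 1062 and 1041, and 840 and 897 (0.51, SE 0.05, adjusted p = 5.67e-08). Compared within each matched dose, the azacitidine arrays stood above the decitabine arrays at all 3 doses in 11 of the 27 genes. This was not counted over all genes called. The 10 genes not called included RRS1 (0.02, 95% interval -0.12 to 0.16), BYSL (0.07, -0.07 to 0.20) and NPM1 (0.10, -0.07 to 0.27), whose intervals hold 0 and exclude differences of the size seen in DDX10. The other 2 NPM1 probe sets were called higher with azacitidine (0.36 and 0.40).

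In H1299 the order of the compounds was turned for most of the genes called. Azacitidine was higher in 6 and lower in 19 of 37 genes over the doses, against 30.9% and 23.1% of all genes, and 3 and 22 on median-centred values. The median was -0.15 over the set and 0.05 over all genes tested. By dose there were 0 higher and 2 lower at 0.3 µM (2.36% and 4.03% of all genes), 3 and 15 at 1 µM (19% and 15%), and 6 and 10 at 3 µM (33% and 23.3%), the last being 6 and 22 on median-centred values.

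RRS1 differed most. It read 2059 and 2029 at 0.3 µM, 1459 and 1531 at 1 µM and 1769 and 1808 at 3 µM azacitidine, against 2802 and 2423, 2877 and 3041, and 2939 and 2996 with decitabine (-0.68, SE 0.07, adjusted p = 2.98e-08). BYSL read 939 and 942, 918 and 1031, and 1247 and 1177 with azacitidine, against 1279 and 1322, 1425 and 1388, and 1362 and 1480 (-0.40, SE 0.07, adjusted p = 2.74e-05). HEATR1 read 1380 and 1362, 1237 and 1221, and 1165 and 1183, against 1597 and 1716, 1766 and 1608, and 1726 and 1676 (-0.41, SE 0.04, adjusted p = 1.24e-07). In these 3 genes every azacitidine array lay under every decitabine array. NIP7 read 2875 and 2194, 2103 and 1987, and 2926 and 2558, against 3767 and 3537, 4096 and 2757, and 3349 and 3858 (-0.54, SE 0.10, adjusted p = 0.000165). AATF was the gene furthest the other way with arrays apart at each matched dose (0.41, SE 0.06, adjusted p = 4.23e-06). It read 741 and 783, 1008 and 1028, and 1062 and 1159 with azacitidine, against 619 and 679, 678 and 760, and 727 and 814 with decitabine. UTP14A was higher with azacitidine in H1299 too (0.39). The compounds did not differ detectably in NCL (-0.00, 95% interval -0.11 to 0.11), NPM1 (0.01, -0.16 to 0.19), NOP2 (-0.02, -0.14 to 0.11) or DDX10 (-0.05, -0.17 to 0.06).

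**Figure D4:**
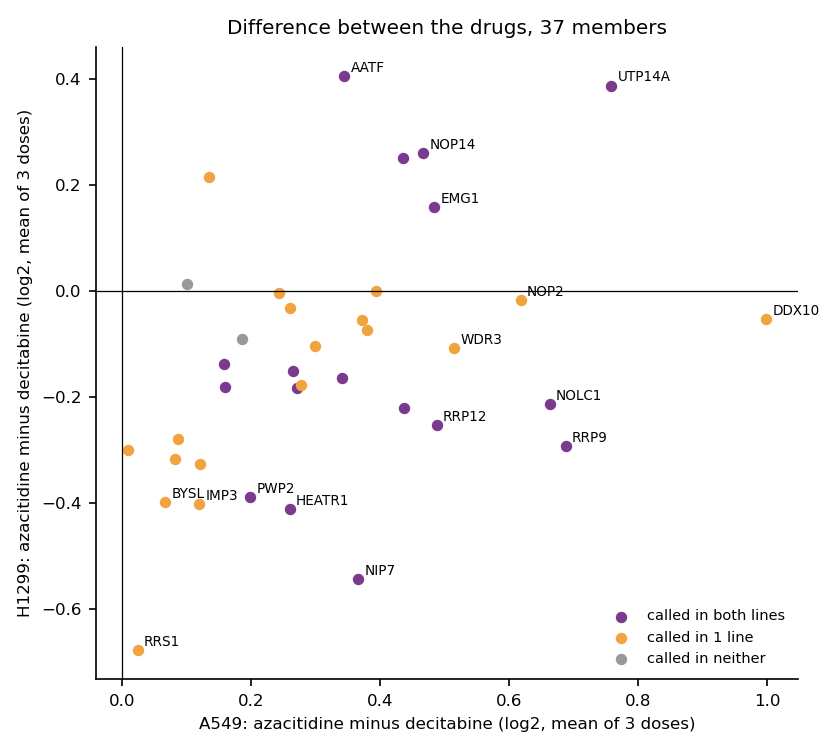
Azacitidine minus decitabine (log2, mean of 0.3, 1 and 3 µM) in A549 (x axis) against H1299 (y axis), 1 point for each of the 37 genes, purple where called in both lines, orange where called in 1 line and grey where called in neither. All points lie at or right of 0 in A549, while in H1299 most lie below 0, down to RRS1 at -0.68, and a few, with AATF at 0.41 and UTP14A at 0.39, lie above it.

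The comparisons of the compounds in the 2 lines share no array. Of the 27 genes higher with azacitidine in A549, 12 were lower with azacitidine in H1299 (44.4% of the 27, and 63.2% of the 19 lower in H1299): DDX21, FBL, HEATR1, NAT10, NIP7, NOLC1, NOP16, PNO1, PWP2, RRP12, RRP9 and UTP18. Over all genes tested, 253 were called that way (11.3% of those higher in A549 and 13.7% of those lower in H1299). Of these, PNO1 rests on 1 of its 2 probe sets, because the second read 0.23 in H1299 where the one used read -0.16. In both lines AATF, EMG1, GNL2, NOP14 and UTP14A were higher with azacitidine (18.5% of the 27 and 83.3% of the 6), against 53.4% and 48.2% over all genes. Set against vehicle at 3 µM, azacitidine raised 11 genes in both lines (47.8% of the 23 in A549 and 91.7% of the 12 in H1299): AATF, DDX10, DDX56, GNL2, NOP14, NOP2, PES1, POLR1C, RRP12, UTP14A and UTP3. Over all genes those shares were 67.2% and 45.9%. HEATR1 rose in A549, by 1 of its 2 probe sets, and fell in H1299. With decitabine POLR1C fell in A549 and rose in H1299. Its call in A549 was lost whichever array was left out and was not shared by its second probe set.

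Whether the lines answered differently was tested directly, as the difference of the 2 differences from vehicle. For 3 µM azacitidine the signed difference from vehicle was higher in A549 than in H1299 in 14 genes and lower in 0, against 13.9% and 17.5% of all genes. The median was 0.31 over the set and -0.04 over all genes. The sign gives direction and not the size of a response. FBL, IMP3, NHP2 and UTP20 are among the 14 although they were not called in A549 and fell in H1299. All 5 snoRNP genes were among the 14, with 7 of 15 processome, 0 of 4 late 40S, 1 of 9 60S and 1 of 4 nucleolar genes. DDX10 differed by 1.09 (SE 0.13, adjusted p = 3.02e-06) and EMG1 by 0.80 (SE 0.15, adjusted p = 0.000317), where EMG1 read 3703 and 3775 with azacitidine and 3775 and 4175 with vehicle in H1299. NOP16, whose role lies in 60S assembly, read 2189 and 2442 with azacitidine and 1465 and 1633 with vehicle in A549, and 1598 and 1819 with azacitidine and 1946 and 2084 with vehicle in H1299 (0.81, SE 0.15, adjusted p = 0.000378). RRP9 differed by 0.87 (SE 0.27, adjusted p = 0.0172), at 113 and 137 with azacitidine and 131 and 172 with vehicle in H1299; that call was lost without the 3 arrays of highest 25th percentile, and on leaving out any 1 of A549 vehicle replicate 1, A549 azacitidine replicate 1, H1299 vehicle replicate 2 and H1299 azacitidine replicate 1 (0.71 to 0.83).

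For 3 µM decitabine the signed difference from vehicle was lower in A549 than in H1299 in 11 genes and higher in 0, against 7.9% and 9.42% of all genes. The median was -0.25 over the set and 0.01 over all genes. NCL, WDR3 and UTP14A are among the 11 and were called against vehicle only in A549, where they fell. NIP7 read 1196 and 1409 with decitabine and 1552 and 1647 with vehicle in A549, beside its rise in H1299 (-0.97, SE 0.26, adjusted p = 0.0119). BYSL read 713 and 568, against 606 and 523 (-0.69, SE 0.16, adjusted p = 0.00495), and RRS1 read 1557 and 1494, against 1451 and 1779 (-0.62, SE 0.16, adjusted p = 0.0115). In A549 the decitabine arrays of BYSL and RRS1 overlapped the vehicle arrays, and those of NIP7 lay below them without a call against vehicle. NIP7 lost its call without A549 decitabine replicate 1 (-0.85) or H1299 decitabine replicate 2 (-0.87), and RRS1 without A549 vehicle replicate 2 (-0.48). POLR1C differed by -0.61 (SE 0.10, adjusted p = 0.00016), although its second probe set gave -0.25 (adjusted p = 0.29). Leaving out the 3 arrays of highest 25th percentile left 7 of the 11 calls. Leaving out A549 3 µM decitabine replicate 1 alone, the array labelled REPEAT, also left 7. The 2 tests use the same vehicle arrays of each line.

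Several genes have more than 1 probe set, which gives a check within the arrays. The 37 genes had 49 probe sets past the filter, and 9 genes had several (HEATR1, NOLC1, NOP16, NPM1, PNO1, POLR1C, RRP12, RRP1B and TSR1). All probe sets of a gene had the same sign in 9 of these 9 genes for A549 with 3 µM azacitidine, in 5 for A549 with decitabine, in 7 for H1299 with azacitidine and in 4 for H1299 with decitabine. For compound against compound over the doses it was 9 in A549 and 6 in H1299, where 1 gene had probe sets called in opposite directions. For the differing response of the lines it was 6 with azacitidine and 8 with decitabine. A second NOP16 probe set fell with 3 µM decitabine in A549 (-0.77, adjusted p = 4.6e-06) where the one used read -0.19, and a second PNO1 probe set read -0.55. A second NOLC1 probe set read -0.41 there, and -0.08 in H1299 with decitabine where the one used rose by 0.40. With 3 µM azacitidine in A549 the calls on HEATR1, PNO1, TSR1 and RRP12 were not shared by every probe set: a second one read 0.09 for HEATR1 (adjusted p = 0.58), 0.03 for PNO1, 0.31 for TSR1 and 0.18 for RRP12. For RRP1B a second probe set was called (0.75, adjusted p = 0.0032) where the one used was not. A second POLR1C probe set read 0.03 in A549 with decitabine, where the one used fell.

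MYC, the transcription factor known to bind E-boxes of many of these genes, took opposite courses with the 2 compounds in A549. It read 2190 and 2231, 3211 and 3358, and 3722 and 4149 with 0.3, 1 and 3 µM azacitidine, and 1707 and 1826, 1374 and 1395, and 1235 and 1264 with decitabine, against 1995 and 2348 with vehicle. At 3 µM that was a rise of 0.85 with azacitidine (adjusted p = 2.07e-08) and a fall of 0.78 with decitabine (-0.78, adjusted p = 1.96e-07). Only the 0.3 µM azacitidine arrays overlapped the vehicle arrays. In H1299 MYC read 2957 and 2990 with 3 µM azacitidine (-0.15, adjusted p = 0.108) and 3676 and 3583 with 3 µM decitabine (0.14, adjusted p = 0.173), against 3262 and 3326 with vehicle. It was called lower with 3 µM azacitidine on median-centred values (-0.27) and with the 25th percentile as a covariate (-0.16), and it was lower at 0.3 µM azacitidine (2545 and 2426, -0.40, adjusted p = 0.00302). Over the doses azacitidine exceeded decitabine by 1.06 in A549 and lay below it in H1299 (-0.18, adjusted p = 0.00144). The median over the 37 genes, as log2 difference from the vehicle mean, was 0.40 and 0.42 on the 3 µM azacitidine arrays, -0.02 and -0.12 on the 3 µM decitabine arrays and -0.04 and 0.04 on the vehicle arrays of A549. In H1299 it was 0.02 and 0.03 with azacitidine, 0.16 and 0.21 with decitabine and -0.05 and 0.05 with vehicle. Other genes listed in the MYC network were called at 3 µM too (up to 2 each way are given). MGA rose with azacitidine in A549 (0.93) and fell with decitabine (-0.33). FBXW7 (0.81, low signal) and MXI1 (0.38) rose there with decitabine. MXI1 read 920 and 904 with 3 µM azacitidine in A549 and 818 and 742 with decitabine, against 578 and 605 with vehicle. Its arrays thus stood above vehicle with both compounds. In H1299 MNT rose with azacitidine and decitabine (0.68 and 0.53), and MAX with decitabine (0.33). In A549 MAX read 1686 and 1760 with 3 µM azacitidine and 1454 and 1617 with decitabine, against 1312 and 1377 with vehicle. MYCL rose (1.15) and MXD3 fell (-1.13) in H1299 with azacitidine, both at low signal. Whether MYC or these genes take part in the change of the set was not tested.

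**Figure D5:**
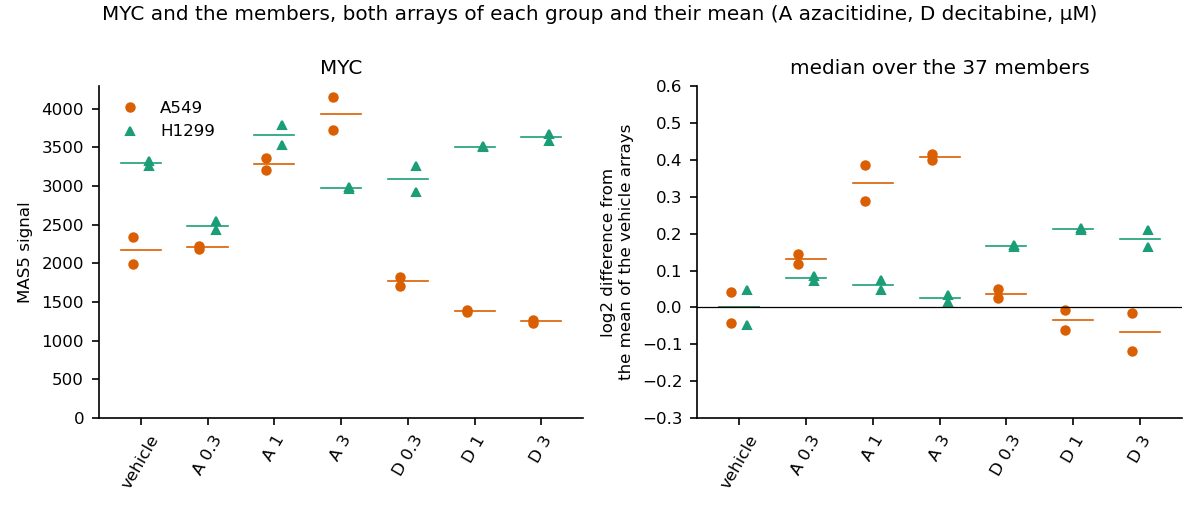
Left, MAS5 signal of MYC (y axis, from 0); right, median over the 37 genes of the log2 difference from the mean of the line's vehicle arrays, on each array of A549 (orange circles) and H1299 (green triangles), with bars at the mean of both arrays and groups on the x axis (A azacitidine, D decitabine, µM). In A549 both panels climb with azacitidine dose and MYC falls with decitabine; in H1299 the set's median is highest with decitabine while MYC stays between 2426 and 3794.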

How the data were processed

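RNA of 28 A549 and H1299 samples was read on 28 one-colour arrays, 2 for each of 14 groups. The deposited values are signal intensity per probe set on a linear scale, made by the authors with MAS5 per the submitters' processing notes; its version and settings are not given in the sources used here. Of 22277 probe sets, 19070 name 1 gene, 1043 several and 2164 none; only the first were used, and 54 of them name a gene of the set. Intensities became log2(signal + 32). Probe sets above their array's median (percentile 50) on at least 2 arrays were kept, 13297 in all, and a gene took its kept probe set of highest mean. A linear model in limma 3.58.1 (R 4.3.3) gave each group its mean, using all 28 arrays, with 14 residual degrees of freedom and a variance trend, and 27 comparisons were drawn, each adjusted by Benjamini-Hochberg over 8024 genes. The members and lists were chosen with earlier results of these data known.

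In each of the 8 main comparisons (3 µM against vehicle, compound against compound, line against line), the genes described by array are the 4 largest rises and 4 largest falls among called genes whose arrays do not overlap (3 each way between vehicle arrays). For compound against compound, overlap was judged within each matched dose. NPM1, NCL, FBL and POLR1C are always given against vehicle at 3 µM, and of each other list up to 2 genes each way, with MYC always. The code was tested on simulated data. The alternatives tried were quantile normalization, median centring, pseudocounts of 1 and 128, other filters, the mean of a gene's probe sets, each line alone, no trend, the replicate number as a block, the array's 25th percentile as a covariate, and leaving out arrays. Promoters are RefSeq's, on GRCh38.p14, and matched 41 of the 47 genes by symbol.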

Additional observations from a re-analysis of the deposited data

Results flagged for a closer look

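The responses of the 2 lines to the same compound differed in 25 gene and compound pairs of the set and in MYC, by the interaction term in limma. Each value here is the A549 difference from vehicle minus the H1299 difference from vehicle, on the log2 scale, and each cause was not tested. For 3 µM azacitidine all were positive. Among snoRNP and modification genes NAT10 differed by 0.46, FBL by 0.49, NHP2 by 0.54, NOLC1 by 0.75 and EMG1 by 0.80. Among processome genes UTP18 differed by 0.33, WDR3 by 0.47, HEATR1 by 0.61, IMP3 by 0.74, UTP20 by 0.77, RRP9 by 0.87 and DDX10 by 1.09. The helicase DDX21 differed by 0.48, the 60S factor NOP16 by 0.81 and MYC by 1.00. Without the 3 arrays of highest 25th percentile UTP18 (0.29) and RRP9 (0.73) were not called.

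For 3 µM decitabine all were negative. The 60S factors NIP7 and RRS1 differed by -0.97 and -0.62, and the 40S factor BYSL by -0.69. Among processome genes WDR3 differed by -0.58, PWP2 by -0.55, UTP14A by -0.53, WDR43 by -0.35 and HEATR1 by -0.33. POLR1C differed by -0.61, NCL by -0.46, NOLC1 by -0.44 and MYC by -0.92. HEATR1, NOLC1, WDR3 and MYC thus differed between the lines with both compounds, with opposite sign. Without the 3 arrays BYSL (-0.43), PWP2 (-0.45), UTP14A (-0.33) and WDR43 (-0.34) were not called. The vehicle arrays of each line enter both tests.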

How the results depend on the processing

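With 2 arrays a group and cultures not said to be separate, precision is limited by the number of arrays. Leaving out the 3 arrays of highest 25th percentile leaves 1 array each of A549 vehicle, 3 µM azacitidine and 3 µM decitabine. Counts of genes called under the alternatives ran from 21 to 24 for 3 µM azacitidine in A549, 3 to 7 for decitabine in A549, 17 to 21 and 12 to 16 for these in H1299, 25 to 29 and 23 to 25 for compound against compound in A549 and H1299, and 13 to 17 and 7 to 13 for the differing response to azacitidine and decitabine. The 3 and the 7 came from leaving out the 3 arrays of highest 25th percentile, chosen after seeing the data. Leaving out 1 array gave, in the same order, 22 to 23, 3 to 5, 15 to 17, 9 to 11, 26 to 29, 22 to 25, 12 to 15 and 7 to 11. For decitabine in A549 the 3 came without vehicle replicate 1 or without 3 µM decitabine replicate 1, the array labelled REPEAT. Same-numbered arrays did not deviate together consistently (r -0.245 to 0.266 in A549, 9 of 21 pairs over 0.1, and -0.0784 to 0.156 in H1299, 3 of 21). The check cannot exclude pairing, and the main model did not pair arrays by number. With the replicate block the counts were 22, 6, 17, 16, 28, 25, 14 and 11. With the 25th percentile as a covariate, 15 genes were called for 1 µM azacitidine in A549, against 23. The values that changed sign were called neither before nor after. NPM1 with 3 µM decitabine in A549 (0.01) read -0.056 on quantile-normalized values, -0.157 as the mean of its probe sets, -0.033 with the covariate, and -0.133 to 0.158 with 1 array left out. In H1299 with azacitidine, quantile normalization gave 0.032 for NCL and 0.027 for NPM1, where median centring called NCL lower (-0.28) and the mean of probe sets NPM1 (-0.36). With decitabine that mean gave -0.115 for NPM1. With 1 array left out, FBL and NPM1 in A549 with azacitidine ran from -0.031 to 0.197 and from -0.172 to 0.339, and FBL in H1299 with decitabine from -0.089 to 0.015. POLR1C in A549 with decitabine lost its call whichever array was left out. RRP9 lost its differing response to azacitidine, and BYSL its differing response to decitabine (-0.43), without the 3 arrays. NIP7 in H1299 with decitabine lost its call without vehicle replicate 2 or decitabine replicate 2. The cause was not tested.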

Other observations

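Other genes of the pathway, from lists that leave out the 47, had these counts at 3 µM. These lists too were chosen with earlier results of these data known. In A549 with azacitidine, where 22.1% of all genes rose and 16.2% fell, 20 of 32 other 40S and snoRNP factors rose and 0 fell, with a median of 0.34, and 27 of 39 other 60S factors rose and 1 fell, with a median of 0.45. PDCD11, a processome scaffold, read 915 and 895 with azacitidine and 409 and 461 with vehicle (1.01, adjusted p = 1.54e-07). GAR1, a core snoRNP protein, read 1718 and 1543, against 908 and 867 (0.85), and NOL9, a kinase of pre-rRNA ends, read 1176 and 1078, against 574 and 577 (0.93). The 60S gene that fell was BCCIP, at 435 and 424, against 753 and 683 (-0.70). Of the RNA polymerase I machinery, 7 of 17 genes rose and 2 fell, among them RRN3, the polymerase I initiation factor, at 1821 and 1966, against 1214 and 1124 (0.68). Of the cytosolic ribosomal proteins, 2 of 51 rose and 0 fell, with a median of 0.10. With decitabine in A549, where 15% of all genes rose and 10.8% fell, 4 rose and 6 fell of 32, 5 and 6 of 39, 3 and 3 of 17, and 1 and 0 of 51, in the same order of lists. Among those that fell were MPHOSPH10 (-0.65) and BRIX1 (-0.67).

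In H1299, where azacitidine raised 32.3% and lowered 21.6% of all genes, it raised 14 and lowered 3 of the 32 other 40S and snoRNP factors, and raised 20 and lowered 5 of the 39 other 60S factors. RIOK3, a kinase of 40S maturation, read 3555 and 3710 with azacitidine and 1626 and 1531 with vehicle (1.19, adjusted p = 1.75e-10). RRN3 read 2149 and 2113, against 871 and 785 (1.33, adjusted p = 6.58e-08), within 7 genes of the polymerase I machinery that rose and 4 that fell of 17, shares not far from those of all genes. Of the 51 ribosomal protein genes 0 rose and 4 fell, with a median of -0.10, RPL10A at -0.35 among them. With decitabine, against 16.3% and 14.6% of all genes, 11 of the 40S list rose and 1 fell, and 13 of the 60S list rose and 2 fell. UTP6, a processome protein, rose by 0.92, and DDX27, a 60S helicase, by 0.81. Exosome genes, which trim and degrade pre-rRNA, rose in 3 and 0 of 10 in A549 with azacitidine and decitabine, and in 5 and 4 of 10 in H1299, while 0, 3, 0 and 0 fell.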
